A study of Oryza sativa with 9 samples.

Results

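The wild-type transcriptome of the young rice panicle was read from 3 libraries, named wild type 1, 2 and 3, which are the libraries that the labels call wild type among the 9 libraries of the series. Each was made from panicles of about 1 cm of Nipponbare, a japonica cultivar, and the study places the stamens of such panicles at stages 4 to 6 of their development. The other 6 libraries, used here for contrast, came from panicles of the same length that were osmads58-/- by genotype. Of these, 58Z (libraries 1, 2, 4b and 5b) was matched by its number of libraries to the study's line with a dSpm transposon in an intron of OsMADS58, and 58CRIS (libraries 1 and 2) came from 2 independent sterile CRISPR lines, each library a pool of 8 panicles from 4 plants. The methods speak of 3 wild-type lines but do not say which plants or growing place gave which library. A panicle of this age mixes branch meristems, young floral organs and germ cells, so that fewer cells of a type and less RNA per cell cannot be told apart.

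A young panicle carries spikelets whose floral organs are laid down by MADS-box transcription factors. Inside each stamen, a few cells become pollen mother cells and enter meiosis, in which programmed DNA breaks are made, processed and repaired as crossovers while homologous chromosomes pair. Photosynthetic genes are known mainly from green leaves, and a panicle of this age is still enclosed by leaf sheaths. Floral and meristem regulators other than OsMADS58 and OsAP2-like were not analysed here, because the files, the study and the reference table at hand pair no other such name with the gene identifiers. Names of meiotic and photosynthetic genes below are those that the study gives to its identifiers, and genes with no such name are given by identifier, whose first digits are the chromosome in the rice annotation MSU v7.0.

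Primers that the study used for RT-qPCR are shown for 3 genes whose levels are described below, all in lower case and 5′ to 3′. LOC_Os06g48970, on chromosome 6, was the study's reference gene and differed among the wild-type libraries, and PAIR1 (LOC_Os03g01590, chromosome 3) and RPA2A (LOC_Os02g58220, chromosome 2) were the meiotic genes nearest to 0.
LOC_Os06g48970 forward: ggcgcttaaagaacttaagagga
LOC_Os06g48970 reverse: tgcatcgtagcccctgtaat
PAIR1 forward: atggagggggttgttagagc
PAIR1 reverse: ggtgctcggttcattggaga
RPA2A forward: gaagcgtgctactgctttcg
RPA2A reverse: tgcagggctaccaatctgtg

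Counts summed to 83042245, 77715447 and 81967818 in wild type 1, 2 and 3, within the range of the whole series (65192657 to 83042245). Levels are given as CPM, the count of a gene for every 1000000 counts of its library. CPM is not divided by gene length, so a CPM compares 1 gene between libraries, and between genes it gives a share of counts, not of molecules. Wild type 1 stood apart from the other 2 wild-type libraries. A gene differed between wild type 2 and wild type 3 by a median of 1.08-fold, and 96.1% of the 18585 genes at 1 CPM or more in all 3 libraries lay within 1.5-fold. Against wild type 1, the medians were 1.32-fold for wild type 2 and 1.31-fold for wild type 3, with 67.3% and 67.0% of genes within 1.5-fold. Wild type 2 and wild type 3 nevertheless differed by more than counting noise. With 4 counts taken as 1 read pair, their median squared difference was 2.91 times that noise. The same value was 3.03 for 58Z 4b and 5b and 3.74 for 58CRIS 1 and 2. Such an excess cannot tell separate plants from repeated preparations of the same RNA. Wild type 2 and 3 were kept as separate samples because the study counts them as replicates. Levels are therefore given library by library, and the main counts and means also without wild type 1.

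Most genes were either clearly in use in the panicle or gave no count. Of the 56143 genes in the table, 18585 (33.1%) were on, meaning at 1 CPM or more in all 3 libraries, and 26538 (47.3%) had no count in any of them. Without wild type 1 these counts were 19484 and 27367. An observed 0 leaves room for as many as 3 counts, 0.0361 to 0.0386 CPM in these libraries, a limit that covers counting error only. If 1 read pair weighs 4 counts, the limit would be 0.145 to 0.154 CPM. The remaining 11020 genes had counts but were not on. Among these, 8883 were under 1 CPM in every library, 938 passed it in 1 library and 1199 in 2. Wild type 1 was the library that missed in 899 of those 1199 genes, against 157 for wild type 2 and 143 for wild type 3.

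Genes on were spread unevenly over the chromosomes. The highest shares were on chromosomes 3 (45.4%), 2 (41.6%) and 1 (40.4%), and the lowest on chromosomes 11 (23.5%), 10 (25.1%) and 12 (25.7%). Chromosome 3 also held the largest share of counts, 15.9%, 16.2% and 16.1% in wild type 1, 2 and 3. Of 103 plastid identifiers 34 were on, and they summed to 599 CPM in wild type 1, 360 CPM in wild type 2 and 372 CPM in wild type 3. The library apart was again wild type 1, and the mutant libraries ranged from 341 to 756 CPM. Mitochondrial identifiers, 5 of 54 on, summed to 40.1, 42.9 and 35.7 CPM in the same order.

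A small number of genes took a large share of the counts. The 48 genes with a mean of 1000 CPM or more held 11.4%, 10.8% and 10.7% of the counts of wild type 1, 2 and 3, and the 2232 genes between 100 and 1000 CPM held 47.7%, 48.0% and 48.1%. A further 10224 genes between 10 and 100 CPM held 37.9%, 37.5% and 37.7%. The 7315 genes between 1 and 10 CPM held 2.89% in wild type 1 and 3.32% and 3.33% in the others. In each library, 50% of the counts came from 1445, 1493 and 1500 genes, so the concentration was close in all 3.

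**Figure D1:**
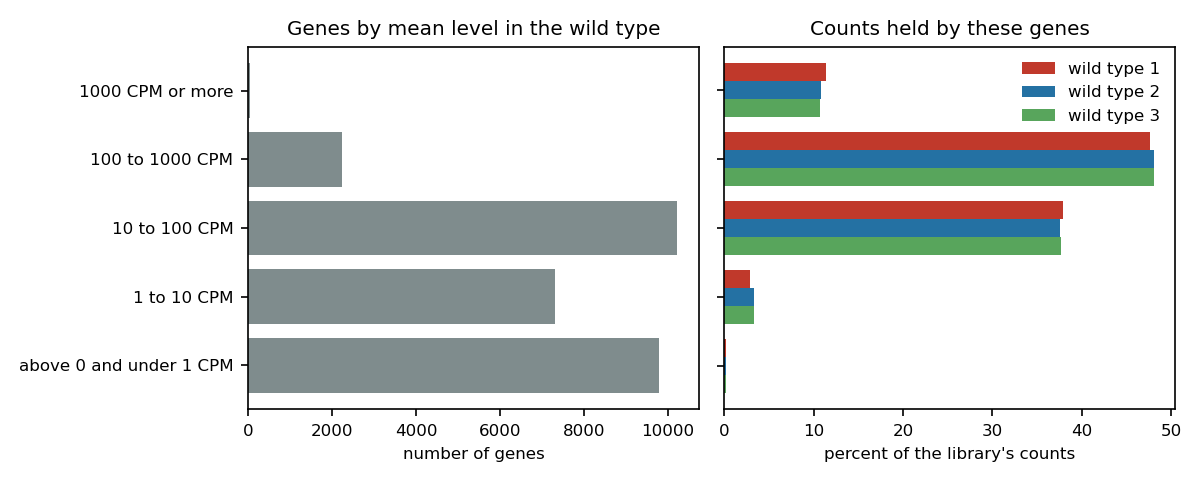
Number of genes in each class of mean wild-type level (left, bars from 0) and the percent of each library's counts that these genes hold (right, bars from 0, colours are wild type 1, 2 and 3). The 2232 genes between 100 and 1000 CPM hold the largest share, 47.7% to 48.1%, and the bars of the 3 libraries nearly coincide in every class.

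The 10 most abundant genes held 5.17% of the counts in wild type 1, 4.53% in wild type 2 and 4.31% in wild type 3. LOC_Os01g15270, on chromosome 1, led all genes with 12866, 11383 and 10789 CPM in wild type 1, 2 and 3. LOC_Os03g46770, on chromosome 3, followed with 9560, 9585 and 9815 CPM. The first was highest in wild type 1, whereas the values of the second differed by only 1.03-fold.

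LOC_Os06g51220, on chromosome 6, was at 6210, 4744 and 4447 CPM in wild type 1, 2 and 3. LOC_Os11g26790, on chromosome 11, was at 4257, 2826 and 2738 CPM. LOC_Os02g26700, on chromosome 2, was at 3959, 2594 and 2666 CPM. In these 3 genes wild type 1 lay above both of the other libraries, which were close to each other. The widest gap in this direction was that of LOC_Os01g46580, on chromosome 1, at 4590, 1974 and 1752 CPM. LOC_Os04g18090, on chromosome 4, was at 3212, 2612 and 2572 CPM. LOC_Os06g04020, on chromosome 6, ran the other way at 1602, 3440 and 3155 CPM, with wild type 1 the lowest.

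LOC_Os02g49720, on chromosome 2, was highest in wild type 2, at 2819, 3415 and 2605 CPM in the order above. LOC_Os03g12670, on chromosome 3, held 2634, 2711 and 2597 CPM and was among the closest of the 10. In 6 of these 10 genes wild type 1 was above both others. Over the 100 most abundant genes, down to a mean of 697 CPM, wild type 1 was above both others in 49 (59 with TMM scaling, described below) and below both in 45, and 69 lay within 1.5-fold. Those 100 genes held 15.8%, 15.1% and 14.9% of the counts. Ranked library by library, wild type 2 and wild type 3 shared 96 of their 100 most abundant genes, and wild type 1 shared 76 and 75 with them.

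**Figure D2:**
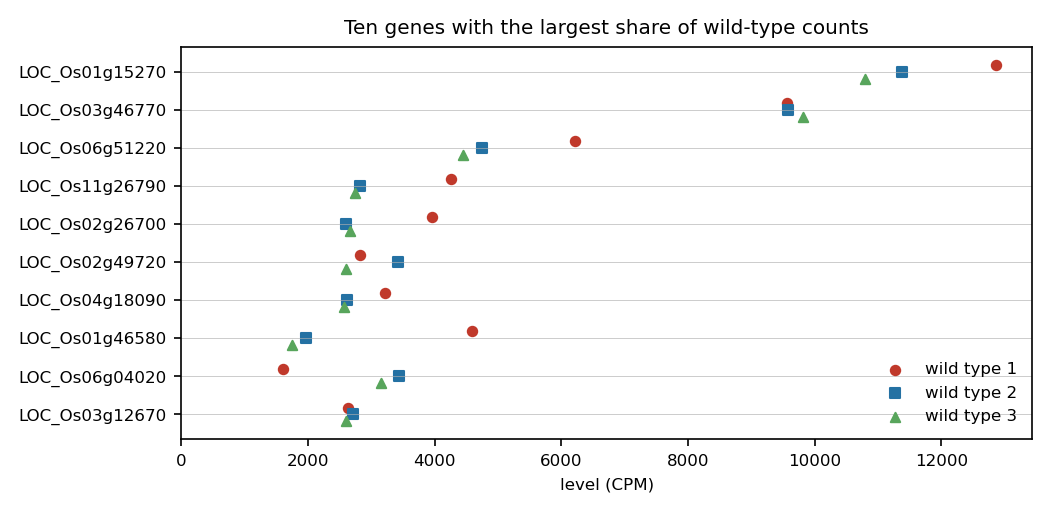
Level in CPM (linear axis from 0) of the 10 genes with the highest mean in the wild type, 1 point a library. Wild type 1 lies to the right of both others in 6 genes, for example LOC_Os01g46580 at 4590 CPM against 1974 and 1752 CPM.

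The wild-type libraries agreed closely in some genes and differed widely in others. The spread of a gene was taken as its highest over its lowest CPM, for the 12501 genes whose mean was 10 CPM or more and that had a count in all 3 libraries. The median spread was 1.33-fold, and 67.5% of genes lay within 1.5-fold. Steady genes, with a spread of at most 1.1-fold, numbered 1511 (12.1%), and variable genes, with a spread of at least 4-fold, numbered 97 (0.776%). These classes were set on the levels themselves and carry no test. At their edges, LOC_Os03g24040 at 250, 227 and 229 CPM was just steady and LOC_Os02g27620 at 33.7, 34.5 and 37.1 CPM just missed. LOC_Os02g57800 at 5.73, 23.1 and 21.9 CPM was just variable, and LOC_Os11g04880 at 137, 43.9 and 34.3 CPM was not. Without wild type 1, 8760 genes were steady and 6 variable.

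Of the genes at a mean of 100 CPM or more, the steadiest was LOC_Os03g60080, on chromosome 3, at 698, 697 and 696 CPM in wild type 1, 2 and 3. LOC_Os07g06710, on chromosome 7, was at 138.2, 137.8 and 138.5 CPM. LOC_Os01g63420, on chromosome 1, was at 353, 352 and 351 CPM. Such genes were chosen for closeness among the same libraries, so the agreement of wild type 1 with the others was set by the choice. The next were LOC_Os06g48640, on chromosome 6, at 131, 130.2 and 130.0 CPM, LOC_Os10g08930, on chromosome 10, at 176, 178 and 176 CPM, and LOC_Os09g28220, on chromosome 9, at 104.5, 104.3 and 103.5 CPM. Steady refers to the wild type alone. Over the mutant libraries LOC_Os03g60080 ran from 199 to 575 CPM, whereas LOC_Os07g06710 stayed between 108 and 125 CPM. Of the 100 most abundant genes, 20 were steady.

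The reference gene of the study's RT-qPCR, LOC_Os06g48970, was not among them. It was at 78.7, 52.9 and 53.1 CPM in wild type 1, 2 and 3, which is 61.5 ± 14.8 CPM (SD, n = 3) and a spread of 1.49-fold, with a mean of 53.0 CPM without wild type 1. Wild type 1 alone was high, and the 6 mutant libraries lay between 44.9 and 61.7 CPM, overlapping the other 2 wild-type libraries.

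In 90 of the 97 variable genes the library apart was wild type 1, low in 72 and high in 18. Wild type 2 was apart and low in 3, wild type 3 apart and low in 3 and apart and high in 1. Between wild type 2 and wild type 3, 84 of the 97 (86.6%) lay within 1.5-fold, against 99.1% of all 12501 genes. Variable genes came from all 12 chromosomes, with 19 on chromosome 1 and 1 on chromosome 11, and 1 was a plastid gene. In the order of all identifiers of the table, 4 of them stood next to another variable gene, the pairs LOC_Os01g37350 with LOC_Os01g37360 and LOC_Os06g05010 with LOC_Os06g05020. LOC_Os01g21120 and LOC_Os01g21135, both low in wild type 1, were separated by LOC_Os01g21130, which was not among the 12501 genes.

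The widest spread was that of LOC_Os12g37415, on chromosome 12, at 95.4 CPM in wild type 1 and 0.0901 and 0.0976 CPM in wild type 2 and 3. The counts behind these levels were 7922, 7 and 8. In the mutant libraries the gene was at 92.4, 106 and 84.4 CPM in 58Z 1, 4b and 5b, and at 0.107, 0.103 and 0.0875 CPM in 58Z 2 and 58CRIS 1 and 2. The 9 libraries thus fell into a high and a near-zero class that did not follow genotype. LOC_Os03g29340, on chromosome 3, was at 29.7 CPM in wild type 1 and 1.47 and 2.21 CPM in the others. LOC_Os02g06640, on chromosome 2, was at 165 and 175 CPM in wild type 1 and 2 and at 1464 CPM in wild type 3. The last is the 1 variable gene in which wild type 3 was high.

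Of the variable genes that were low in the library apart, LOC_Os05g26902, on chromosome 5, had the widest spread, at 0.0602, 19.3 and 20.2 CPM in wild type 1, 2 and 3 from counts of 5, 1500 and 1656. All 6 mutant libraries held it at 20.5 to 25.4 CPM, so wild type 1 was the exception among the 9. LOC_Os05g39310, on chromosome 5, was at 0.120, 24.6 and 27.8 CPM in the wild type, and LOC_Os08g15010, on chromosome 8, at 14.0, 0.618 and 29.1 CPM. In the latter it was wild type 2 that was low. In all, 3 variable genes had a library under 0.2 CPM beside another at 10 CPM or more.

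**Figure D3:**
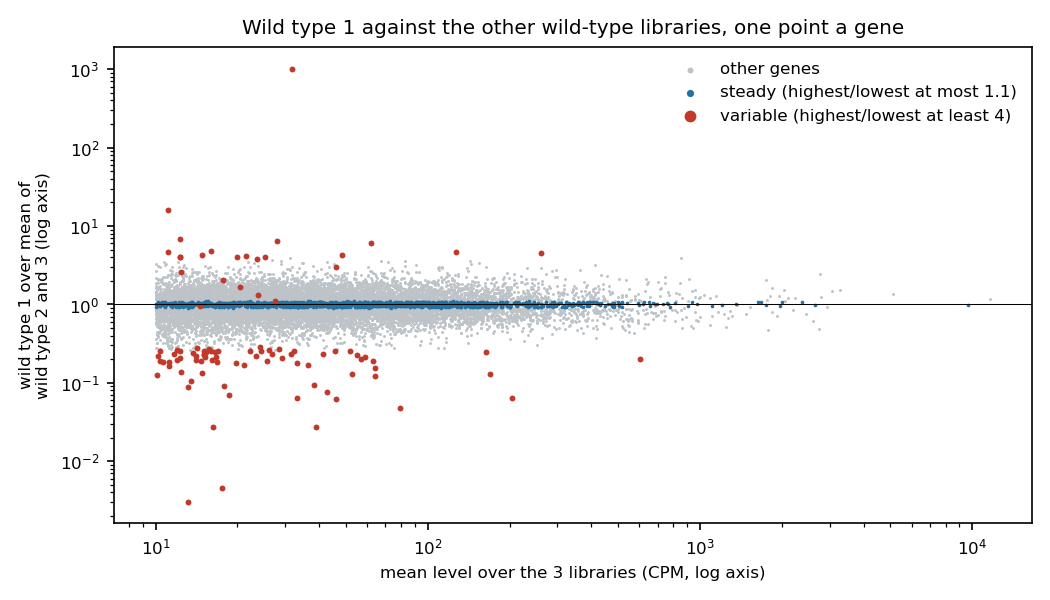
Level of each of 12501 genes in wild type 1 over the mean of wild type 2 and 3 (vertical, log axis) against its mean level in CPM (horizontal, log axis), with 1511 steady genes in blue and 97 variable genes in red. Most red points lie below the line at 1, since wild type 1 was low in 72 variable genes and high in 18.

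The same genes were also read in the 58Z and 58CRIS libraries, which had no part in choosing them. Steady wild-type genes had a median spread of 1.37-fold over the 4 58Z libraries, variable ones 4.89-fold and all 12501 genes 1.58-fold. Libraries with no count, found for 6 of the 97 variable genes, were set to the floor of 3 counts there, so that their spread is a lower bound. At that floor, 51 of the 97 variable genes (52.6%) reached 4-fold within 58Z, as did 3.48% of all. Between the 2 58CRIS libraries the medians were 1.06-fold, 1.16-fold and 1.07-fold for steady, variable and all genes. Of the 72 variable genes with wild type 1 low, 58Z 1 was the lowest 58Z library in 55, while it was the lowest in 39.1% of all 12501 genes. Of the 18 with wild type 1 high, 58Z 1 was the highest 58Z library in 15, against 32.1% of all genes. The libraries numbered 1 of both groups therefore lay on the same side in most of these genes. Whether they share a growing place or a batch is not given in the labels, and its part was not tested.

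Over all 18585 genes on, wild type 1 was more than 2-fold below the mean of the other 2 libraries in 1471 and more than 2-fold above it in 591. Between wild type 2 and 3, 87 genes differed by more than 2-fold. The median log2 ratio of wild type 1 to the mean of the others was -0.07 with CPM and 0.06 with TMM scaling, which trims the most different genes before it sets the library sizes. Across genes on, wild type 1 was the lowest library in 49.4% of genes on and the highest in 40.05% with CPM, and these shares became 40.8% and 48.6% with TMM. The direction of small shifts in wild type 1 thus depended on the scaling.

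OsMADS58 (LOC_Os05g11414, chromosome 5), a C-class MADS-box gene of stamen and carpel identity, was on in the wild type at a low level. It was at 7.36, 3.15 and 3.84 CPM in wild type 1, 2 and 3 from 611, 245 and 315 counts, which is 4.78 ± 2.26 CPM (SD, n = 3), or a mean of 3.50 CPM without wild type 1. The high library was wild type 1. OsMADS58 was at 1.94, 0.721, 1.87 and 2.102 CPM in 58Z 1, 2, 4b and 5b and at 0.295 and 0.525 CPM in 58CRIS 1 and 2. Every mutant library was thus below every wild-type library. OsAP2-like (LOC_Os03g64260, chromosome 3), named for the AP2 family of transcription factors, was at 6.94, 5.74 and 4.27 CPM in the wild type. The 58Z libraries, at 4.32 to 10.1 CPM, overlapped this range, and the 58CRIS libraries, at 1.27 and 2.66 CPM, lay below it.

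Genes that the study names as meiotic were nearly all on in this panicle. Levels are those of the whole panicle, so a gene that is on need not act in meiosis there. Of the 28 that the study names, 25 were on, none lacked counts in all 3 libraries, and ZIP4, PAIR1 and RPA2A were the 3 that fell under 1 CPM in at least 1 library. The share on, 25 of 28, stands beside 33.1% of all genes, and 26 were on without wild type 1. The median of their mean levels was 19.2 CPM, or 19.8 CPM without wild type 1, and 15 had a mean of at least 10 CPM. Among those 15 none was steady or variable, and 12 lay within 1.5-fold, beside 67.5% of all genes with such a mean. Wild type 1 was the lowest library in 13 and the highest in 9 of the 28, or in 12 and 11 with TMM.

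The 3 genes of germ cells and entry into meiosis were on, and wild type 1 was the lowest library in each. MEL1 (LOC_Os03g58600, chromosome 3), an Argonaute protein of rice germ cells, was at 107, 119 and 126 CPM in wild type 1, 2 and 3. MEL2 (LOC_Os12g38460, chromosome 12), an RNA-binding protein needed for the timing of meiotic entry, was at 3.203, 6.67 and 5.87 CPM. SWI1/DYAD/AM1 (LOC_Os03g44760, chromosome 3), needed for early meiotic prophase, was at 17.5, 24.1 and 20.9 CPM. MEL1 was the closest of the 3, with a spread of 1.17-fold, and MEL2 the widest, with 2.08-fold.

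Of the 4 genes listed for break formation, 3 were on. The identifier that the study lists as SPO11-1 (LOC_Os03g54084, chromosome 3), by name the enzyme that cuts the DNA, was at 158, 182 and 189.95 CPM in wild type 1, 2 and 3. The other genes of this group reached at most 10.2 CPM, and the identifier may belong to another gene, since its name could not be checked here. Without it, 24 of 27 named meiotic genes were on. SDS (LOC_Os03g12414, chromosome 3), a cyclin-like protein, was at 7.57, 6.87 and 8.26 CPM. CRC1/PCH2 (LOC_Os04g40290, chromosome 4), an ATPase that also acts on the paired chromosomes, was at 10.2, 5.22 and 7.72 CPM. These 3 were on in every library.

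PAIR1 (also listed as PRD3), a protein needed for the breaks, was the exception among them. It was at 0.145, 0.1801 and 0.671 CPM in wild type 1, 2 and 3 from 12, 14 and 55 counts. Wild type 3 was the highest library, and none reached 1 CPM. At about 4 counts a read pair, these levels rest on a few pairs in wild type 1 and 2. PAIR1 was at 0.212, 0.245, 2.99 and 1.94 CPM in 58Z 1, 2, 4b and 5b and at 4.84 and 3.04 CPM in 58CRIS 1 and 2. The 58Z libraries overlapped the wild type, and both 58CRIS libraries lay above it.

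Genes of break processing and strand exchange had the highest median share of counts of the 5 groups, 24.6 CPM, and 10 of the 11 were on. RAD51D (LOC_Os09g01680, chromosome 9), a protein of recombinational repair, was at 39.6, 33.3 and 31.8 CPM in wild type 1, 2 and 3. RAD51C (LOC_Os01g39630, chromosome 1), which acts in the same repair, was at 33.8, 19.6 and 20.4 CPM. DMC1A (LOC_Os12g04980, chromosome 12), the recombinase that acts in meiosis alone, was at 10.7, 4.81 and 4.57 CPM. In all 3 wild type 1 was the high library, and in RAD51C and DMC1A the others were close to each other.

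MRE11 (LOC_Os04g54340, chromosome 4), a nuclease that trims the broken ends, was at 14.4, 22.2 and 21.5 CPM, with wild type 1 low. Reads of genes with close copies, such as DMC1A, can be divided between the copies in the counting, so that its level is uncertain.

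The RPA genes code for subunits of the complex that coats single-stranded DNA. RPA1A (LOC_Os02g53680, chromosome 2) was at 29.4, 32.6 and 34.3 CPM, and RPA1C (LOC_Os05g02040, chromosome 5) at 21.7, 32.1 and 30.8 CPM. RPA2B (LOC_Os02g42230, chromosome 2) was at 36.1, 29.2 and 28.4 CPM, and RPA2C (LOC_Os06g47830, chromosome 6) at 37.1, 20.4 and 26.1 CPM. The large-subunit genes were thus lowest in wild type 1 and the RPA2B and RPA2C genes highest there. RPA2A had no count in wild type 1, which allows up to 0.0361 CPM, and was at 0.502 and 0.732 CPM in wild type 2 and 3 from 39 and 60 counts. In the mutant lines RPA2A was at 0.199 CPM in both 58Z 1 and 58Z 2, at 6.71 and 5.24 CPM in 58Z 4b and 5b, and at 5.99 and 7.79 CPM in the 58CRIS libraries. As for PAIR1, the 58Z libraries numbered 1 and 2 were near the wild type and those numbered 4b and 5b were not.

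All 6 genes listed for chromosome structure and movement were on. RAD21.3 (LOC_Os01g67250, chromosome 1), a subunit of the cohesin ring that holds sister chromatids, was at 177, 198 and 175 CPM in wild type 1, 2 and 3. ASY1/PAIR2 (LOC_Os09g32930, chromosome 9), an axis protein, was at 34.5, 38.5 and 41.5 CPM. PAIR3/ASY3 (LOC_Os10g26560, chromosome 10), another axis protein, was at 3.68, 2.99 and 1.92 CPM. Wild type 1 was thus the highest library for PAIR3 and the lowest for PAIR2.

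SGO1 (LOC_Os02g55570, chromosome 2), which protects cohesin at the centromere, was at 8.97, 7.37 and 7.45 CPM. ZYP1/ZEP1 (LOC_Os04g37960, chromosome 4), the central filament of the synaptonemal complex, was at 1.60, 2.38 and 1.54 CPM and so lay low in all 3 libraries. The identifier that the study lists as PSS1 (LOC_Os01g02890, chromosome 1), by name a kinesin-like protein of male meiosis in rice, was at 17.8, 18.5 and 20.8 CPM. It may belong to another gene, since its name could not be checked here.

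Of the 4 crossover genes, 3 were on. HEI10 (LOC_Os02g13810, chromosome 2), a ubiquitin-ligase-like protein at crossover sites, was at 32.0, 22.5 and 25.5 CPM in wild type 1, 2 and 3. MSH5 (LOC_Os05g41880, chromosome 5), of the MutS family, was at 17.3, 22.6 and 20.1 CPM. MER3/RCK (LOC_Os02g40450, chromosome 2), a DNA helicase, was at 9.75, 10.6 and 8.93 CPM. ZIP4 (LOC_Os01g66690, chromosome 1), a partner of these proteins, was at 0.108 CPM in wild type 1 and 1.12 and 1.22 CPM in wild type 2 and 3. Leaving out wild type 1, ZIP4 counted as on. The 2 identifiers that the study lists among its meiotic genes with no name, LOC_Os07g05630 and LOC_Os11g04954, were at 0.867, 1.21 and 1.90 CPM and at 1.20, 2.39 and 1.38 CPM.

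**Figure D4:**
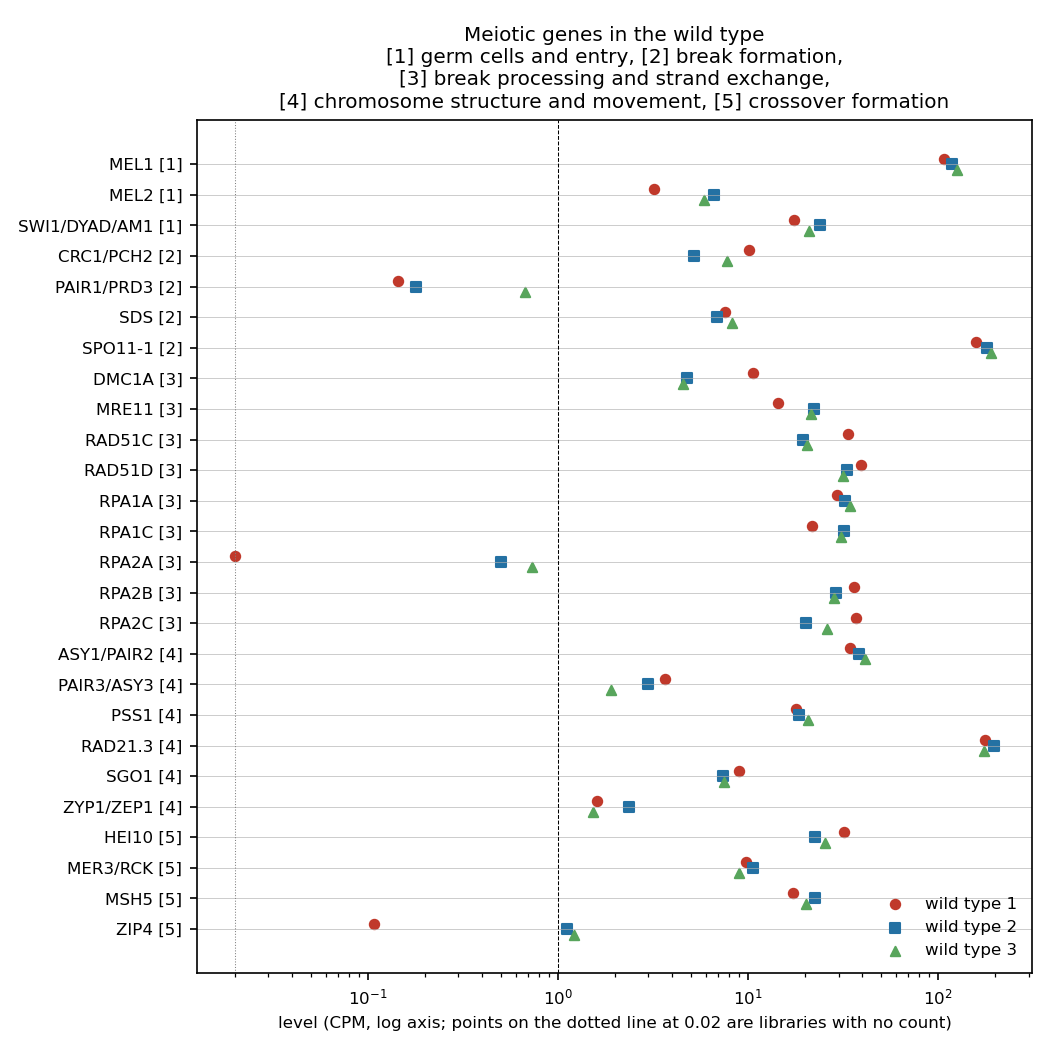
Level of 26 of the 28 named meiotic genes in CPM (log axis), 1 point a library, with the role group in brackets after each name and a dashed line at 1 CPM; a library with no count is drawn on the dotted line. ZIP4, PAIR1 and RPA2A are the 3 genes with a point left of the dashed line, and RPA2A in wild type 1 has no count.

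Photosynthetic genes were on at low levels. Of 9 nuclear genes that the study names, 7 were on and their median mean level was 5.40 CPM, below the 19.2 CPM of the meiotic genes as a share of counts. For photosystem I, OsPsaE (LOC_Os07g25430, chromosome 7) was at 16.9, 16.6 and 15.2 CPM in wild type 1, 2 and 3 and OsPsaK (LOC_Os07g05480, chromosome 7) at 5.33, 7.87 and 7.15 CPM. OsPsaF (LOC_Os03g56670, chromosome 3) was at 3.42, 4.40 and 5.94 CPM. OsPsaN (LOC_Os12g08770, chromosome 12) stood around the threshold at 0.867, 1.54 and 0.952 CPM. OsPsAG (LOC_Os09g30340, chromosome 9) had no count in any of the 9 libraries, which allows up to 0.0361, 0.0386 and 0.0366 CPM in wild type 1, 2 and 3. That limit covers counting error only, and whether reads of this gene could be assigned to its identifier was not tested.

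For photosystem II, OsPsbO (LOC_Os01g31690, chromosome 1), of the oxygen-evolving complex, was at 23.1, 34.3 and 34.1 CPM. OsPsbR (LOC_Os08g10020, chromosome 8), a small subunit of that photosystem, was at 1.24, 4.34 and 3.76 CPM, a spread of 3.50-fold. Both were low in wild type 1. The ATP synthase genes OsAtpC (LOC_Os07g32880, chromosome 7) and OsAtpD (LOC_Os02g51470, chromosome 2) were at 4.65, 5.35 and 6.21 CPM and at 30.0, 26.7 and 24.8 CPM. Wild type 1 was the lowest library in 6 of the 9 genes with CPM and with TMM. The plastid identifiers summed to most in that library. A single plastid gene, LOC_Osp1g00220, at 140, 24.1 and 22.2 CPM in wild type 1, 2 and 3, weighed heavily in that sum. The study enriched mRNA with oligo(dT) beads, and how much plastid RNA was kept was not tested.

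**Figure D5:**
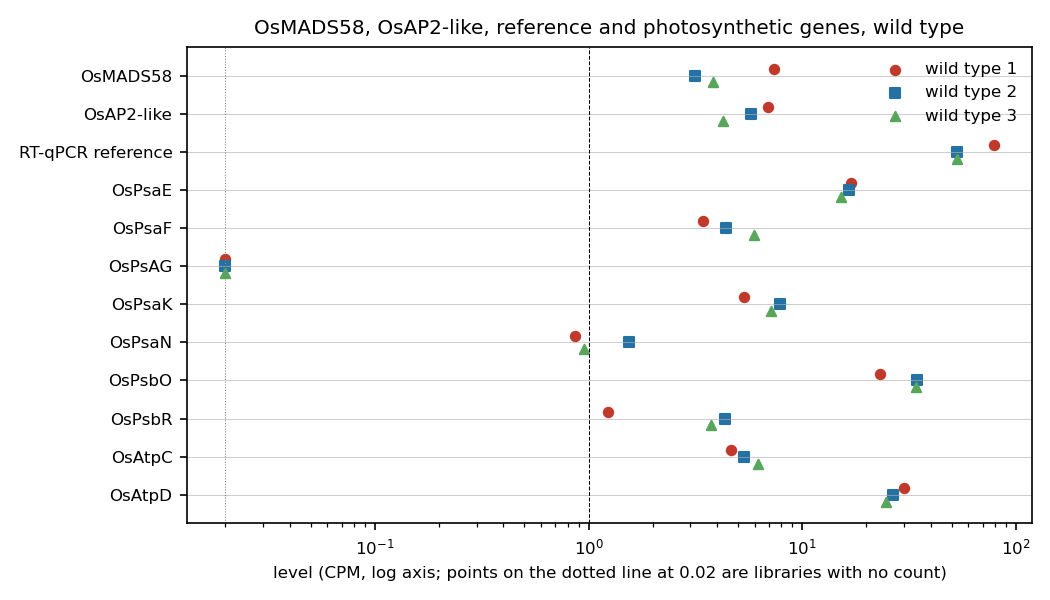
Level in CPM (log axis) of OsMADS58, OsAP2-like, the RT-qPCR reference gene LOC_Os06g48970 and 9 photosynthetic genes, 1 point a wild-type library, with a dashed line at 1 CPM and libraries with no count on the dotted line. OsPsAG sits on the dotted line in all 3 libraries, and OsPsbR is at 1.24 CPM in wild type 1 against 4.34 and 3.76 CPM.

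Larger gene groups were taken from the study's pathway lists, which hold genes the study had found changed on these same libraries and so are no independent sample of a pathway. Of 212 oxidation-reduction genes, 155 were on and 10 had no count in the wild type, or 165 and 11 without wild type 1. Wild type 1 was the lowest library in 88 of them and the highest in 89, with a median log2 ratio to the others of -0.03 with CPM and 0.09 with TMM. Of 18 cell-cycle genes, 15 were on (16 without wild type 1), wild type 1 was lowest in 12 and highest in 5, and the median log2 ratio was -0.47 (-0.35 with TMM). Of 27 meiosis genes on that list, 20 were on (22 without wild type 1), wild type 1 was lowest in 20 and highest in 4, and the median log2 ratio was -0.89 (-0.77 with TMM), beside -0.07 (0.06) for all genes on.

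Genes on in the wild type were mostly on in the mutant lines too. Of the 18585 genes on, 17666 (95.1%) were on in all 9 libraries, none lacked counts in all mutant libraries, and 6 were under 1 CPM in all of them. The highest of the 6 was LOC_Os10g33810, on chromosome 10, at 1.99, 3.53 and 2.51 CPM in wild type 1, 2 and 3 and at no more than 0.905 CPM in any mutant library. Of the 26538 genes with no wild-type count, 22461 (84.6%) had none in any of the 9. There were 4 that were on in all 6 mutant libraries. LOC_Os03g43100, on chromosome 3, had 0 counts in each wild-type library and 37.4 to 92.5 CPM in the mutant libraries, while LOC_Os05g34490, LOC_Os10g35160 and LOC_Os11g45040 lay between 1.06 and 2.93 CPM there. The floor of 3 counts was taken at its highest wild-type value of 0.0386 CPM. Against it, the lowest mutant level of LOC_Os03g43100 was 970-fold higher. At 4 counts a read pair that floor would be 0.154 CPM, and the fold would be smaller. These genes were named after their values were seen.

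For the listed genes the wild type was compared with each mutant line with edgeR (quasi-likelihood test, p-values adjusted over 27251 genes by Benjamini-Hochberg), and genes were called at an adjusted p under 0.05 and a fold of more than 2. Of the 28 meiotic genes, the 9 photosynthetic genes, OsMADS58 and OsAP2-like, 38 could be tested. Against 58Z none of the 38 was called, beside 1.45% of all genes tested. At an unadjusted edgeR p under 0.05 there were 6, but the share of all genes at that level was not counted. DESeq2 called 1 of the 38, OsMADS58, beside 4.54% of all genes, and edgeR fitted to these 2 groups alone called 0, beside 0.923% of all genes. In that edgeR fit 5 of the 38 had an unadjusted p under 0.05, again with no share over all genes to set beside them. The log2 fold change of OsMADS58 in 58Z was -1.66 (SE 0.47, adjusted p = 0.118 from edgeR), with all 4 libraries below the wild type.

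Against 58CRIS, 4 of the 38 were called, beside 5.55% of all genes tested, 2 higher (2.04% of all) and 2 lower (3.51% of all) in the mutant. OsMADS58 changed by -3.81 on the log2 scale (SE 0.67, adjusted p = 0.0153 from edgeR). RAD51D, at 17.9 and 19.8 CPM in the 58CRIS libraries, changed by -1.15 (SE 0.24, adjusted p = 0.0260). OsPsaN, at 5.37 and 4.96 CPM there, changed by 1.96 (SE 0.41, adjusted p = 0.0266), and ZYP1/ZEP1, at 5.23 and 7.29 CPM, by 1.52 (SE 0.40, adjusted p = 0.0493). In each of the 4 genes, both 58CRIS libraries lay outside the wild-type range. Genes called by this test were chosen for such a gap, so it adds no support, and its share over all genes was not counted. By the same edgeR test, PAIR1 and RPA2A had log2 fold changes of 3.34 (SE 1.12, adjusted p = 0.0993) and 3.85 (SE 1.60, adjusted p = 0.168), not past the threshold. The study, which used DESeq2, reports PAIR1 as significantly changed in its CRISPR line. It also reports significant changes by RT-qPCR for selected meiotic genes, with PAIR1 and RPA2A among those plotted. OsAP2-like, at -1.78 (SE 0.47, edgeR adjusted p = 0.0508), narrowly missed the p threshold. OsPsaK, at 0.992 (SE 0.25, edgeR adjusted p = 0.0463), narrowly missed the fold threshold. By RT-qPCR, the study reports photosynthetic target genes of OsMADS58 as raised in both mutant lines. DESeq2 called 8 of the 38, beside 11.5% of all genes, and edgeR fitted to these 2 groups alone called 9, beside 10.3%. Without wild type 1 there was 1 call among the 38, beside 2.86% of all genes. With 58CRIS 1 or 58CRIS 2 left out, the spread was taken from the other groups, so only the sizes of change are given here. On the log2 scale OsMADS58 then changed by -3.44 and -4.25 and RAD51D by -1.07 and -1.19. OsPsaN changed by 1.90 and 2.04, and ZYP1/ZEP1 by 1.74 and 1.28.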

How the data were processed

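Panicle RNA of 9 samples was sequenced, 3 of them wild type, which were grouped by genotype label. The authors mapped reads to MSU v7.0 with HISAT2 2.1.0 and quantified genes with StringTie 1.3.3b. The deposited values are whole-number counts per gene, not scaled between samples, and how coverage became counts is not stated. Among counts from 1 to 40, 38.6% to 40.7% in the wild type were multiples of 4, beside 25% for evenly spread values, so 1 read pair may weigh 4 counts and counting limits may be too narrow by as much.

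CPM was the count over the column sum. On meant 1 CPM or more in all 3 wild-type libraries. Spread was the highest over the lowest CPM at a mean of at least 10 CPM. Tests used edgeR 4.0.16 in R 4.3.3 (filterByExpr, TMM, glmQLFit, glmQLFTest, 3 groups, 9 samples). They were also run on simulated data, in which all libraries were independent and all genes shared a common spread. Close pairs of libraries, such as wild type 2 and 3, were not simulated, so that run cannot show how the tests behave with them. Each SE given is the size of the log2 fold change over the square root of the F statistic of the test. DESeq2 1.42.0 was an alternative. P-values weigh the difference between groups against the spread between these libraries, which was estimated over the 3 groups together. Genes named were the 10 most abundant, the 6 steadiest at a mean of at least 100 CPM, the 3 most variable in each direction, and listed genes with a name in the study. Members and lists were chosen with earlier results of these data known. The gene table at hand (RefSeq) matched none of the identifiers, so genes without a name in the study stay unnamed. Of the 28 meiotic genes counted, 2 are not reported here by name.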

Additional observations from a re-analysis of the deposited data

How the results depend on the processing

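The number of genes on and of listed genes on stayed within 1.5 times the values given with TMM scaling, thresholds of 0.5 and 2 CPM and each wild-type library left out. For genes with no count this holds with each library left out, and the share of counts in the 100 most abundant genes then moved by less than 1 SD. Scaling and CPM thresholds do not enter a count of 0. A higher minimum mean of 50 CPM left 763 steady and 16 variable genes, since fewer genes entered, and a minimum of 5 CPM gave 173 variable genes. Leaving out 1 wild-type library gave 2585 to 8760 steady and 6 to 74 variable genes, with 8760 and 6 reached without wild type 1. With TMM, the mean level of 10 of the 64 named genes moved by more than 1 SD.

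Against 58Z, DESeq2 called 1 listed gene in place of 0. Against 58CRIS, DESeq2 called 8 listed genes and a fit of only the 2 groups compared 9. Leaving out 1 library gave 0 to 2 calls. ZYP1/ZEP1 was no longer called with RLE factors, no filter, the replicate block or any wild-type or 58CRIS library left out, at log2 fold changes of 1.28 to 1.74. RAD51D was lost with any of those libraries left out, at -1.23 to -0.997. OsPsaN was lost under the block and without wild type 1, wild type 3 or either 58CRIS library, at 1.84 to 2.04, and OsMADS58 without either 58CRIS library, at -3.44 and -4.25. The causes were not tested.

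With the replicate number as a block in edgeR, 7 listed genes were called against 58CRIS, beside 9.32% of all genes. The numbers 3, 4b and 5b occur in 1 library each, so this fit compared the groups only through libraries numbered 1 and 2. ZYP1/ZEP1 (edgeR adjusted p = 0.0924) and OsPsaN (edgeR adjusted p = 0.0647) were lost against 58CRIS. In 58Z, ZYP1/ZEP1 changed sign to -0.22 (edgeR adjusted p = 0.946). Deviations of same-numbered libraries correlated at 0.313 and 0.127 between the wild type and 58Z and at -0.064 to 0.014 elsewhere, so the numbers were not taken to pair the samples.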
